A study of Homo sapiens with 6 samples.

Results

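The genes examined here encode the 9 enzymes LSS, CYP51A1, TM7SF2, MSMO1, NSDHL, HSD17B7, EBP, SC5D and DHCR7, which carry sterol synthesis from lanosterol towards cholesterol. They were taken by gene symbol, and each matched a single identifier among the 63140 genes of the deposited files. RNA-seq was performed on BT-549 cells, an established triple negative breast cancer line that is labelled as wild type. Of 6 libraries, 3 came from cells grown in adipocyte-conditioned medium (ACM) and 3 from cells grown in unconditioned medium (UCM), in both cases for 24 h. The study describes cells seeded in a 6-well plate, with 3 replicates per medium, and lysed in the wells. Nothing states that the 3 replicates per medium were separate experiments, so p-values measure the spread between these samples, which may be technical. ACM had been kept on mouse OP9 cells differentiating in a medium with insulin, oleate and albumin and little serum. The cells were maintained in RPMI-1640 with serum and insulin, but the formula of UCM is not given in the sources used here, so effects of secreted factors, oleate, insulin and serum on the enzymes cannot be told apart. The sample labels describe the medium as 50% ACM, while the study's supplement describes undiluted ACM.

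Cholesterol is built in the endoplasmic reticulum from acetyl-CoA, through mevalonate and squalene to lanosterol, the first sterol. The enzymes after lanosterol trim its surplus methyl groups and move and reduce its double bonds. Genes of the pathway are classical targets of the transcription factor encoded by SREBF2. SCAP and the INSIG proteins hold that factor in the endoplasmic reticulum while the membrane is rich in sterols, and NF-Y, which binds CCAAT boxes, is known to act beside it at sterol gene promoters.

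Libraries held between 17135288 and 21053257 expected counts, the read numbers that RSEM assigns to genes. After edgeR's filter on low counts 14451 genes were tested, including all 9 enzymes. Replicates differed by more than counting noise, with a chi-square per degree of freedom of 13.1 to 18.8 between ACM libraries and of 21.5 and 19.9 between UCM replicate 1 and UCM replicates 2 and 3, while UCM replicates 2 and 3 differed by 2.32. In each of the 9 enzyme genes the lowest UCM value was that of replicate 1. The labels call the cells epithelial. The epithelial markers EPCAM, CDH1, KRT8, KRT18 and KRT19 summed to at most 2.21 TPM in any library, and EPCAM had no count in 5 of the 6, whereas the mesenchymal genes VIM, CDH2, FN1 and ZEB1 summed to between 2908 and 3497 TPM. ESR1 and PGR had no count, and ERBB2 lay between 25.4 and 32.4 TPM. Of 5 adipocyte markers, ADIPOQ, LEP and CIDEC were at 0 in every library, and the summed TPM of all 5 lay between 0.00 and 0.31 in ACM and between 0.00 and 0.33 in UCM.

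All 9 enzymes had lower mean mRNA levels in ACM, and 8 of them passed edgeR's quasi-likelihood test with Benjamini-Hochberg adjustment over all genes tested (threshold 0.05). Of all genes tested 5.56% passed it, 2.21% lower and 3.35% higher in ACM. The median log2 FC of the 9 was -1.06, against -0.01 over all genes tested. MSMO1 fell most, to 21.2% of its mean in UCM, followed by HSD17B7 and DHCR7, while EBP fell least among the genes that passed, to 58.7%. TM7SF2 had the same direction but an adjusted p-value of 0.0749. In the edgeR fit, all 9 had an unadjusted p-value within 0.05 and a decrease by 0.58 or more on the log2 scale, as did 1.71% of all genes tested. In bulk RNA, fewer cells of a type and less RNA per cell cannot be told apart.

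**Figure D1:**
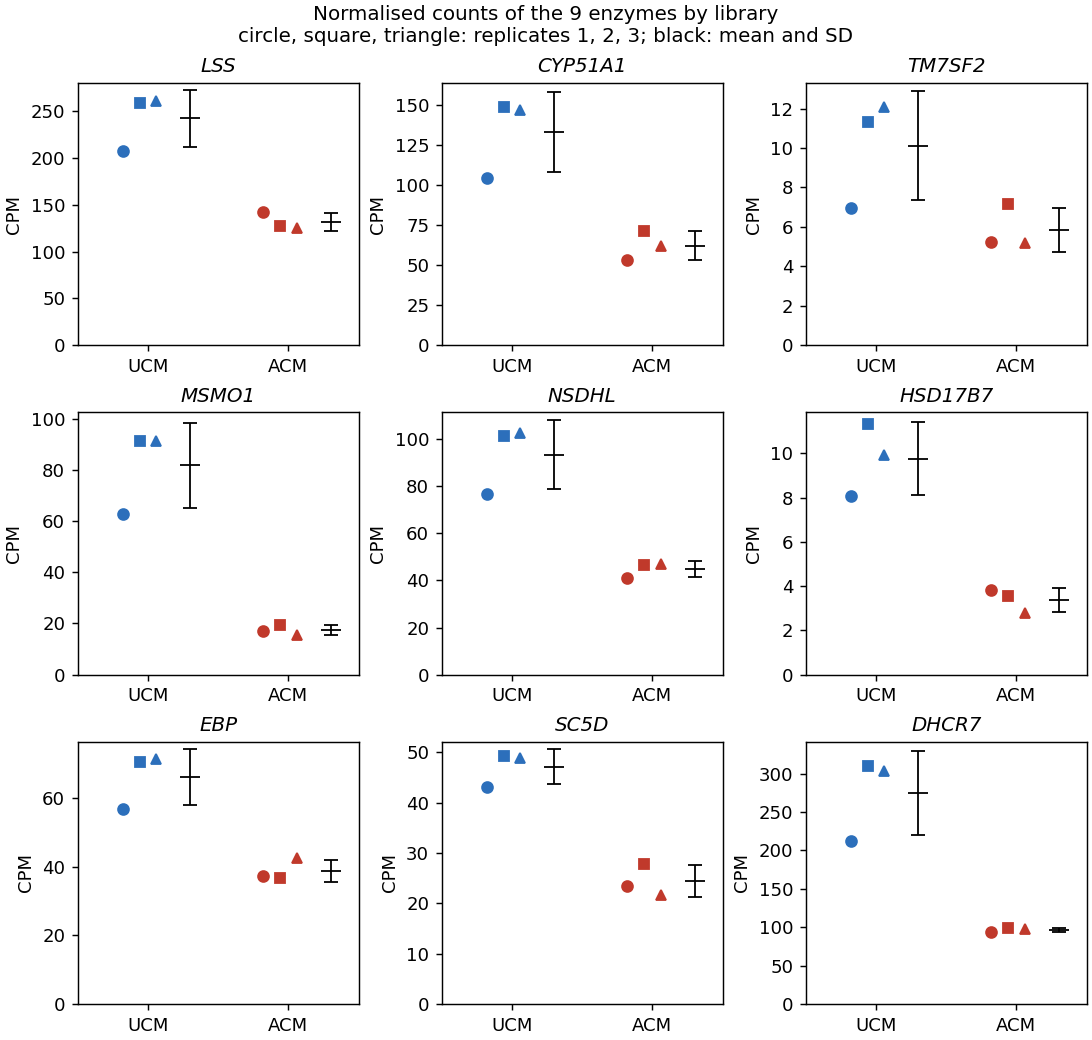
Normalised counts (CPM, linear axes from 0) of the 9 enzymes in UCM (blue) and ACM (red), with a symbol for each replicate and black bars for the mean and SD (n = 3). In 8 panels the 3 ACM libraries lie below the 3 UCM libraries, and in the TM7SF2 panel ACM replicate 2 lies above UCM replicate 1. Of all genes tested, 15.1% had the 3 ACM libraries below the 3 UCM libraries.

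The promoters of the enzymes were compared as well, since the genes moved in the same direction. RefSeq windows of 300 bases, from 250 before to 50 after an annotated start (GRCh38.p14), were found for all 9 genes, with more than one window for SC5D and DHCR7. Windows of the genes with the largest decreases (MSMO1, HSD17B7, DHCR7), of EBP with the smallest decrease that passed, and of CYP51A1 are printed in the direction of transcription, with CCAAT and its reverse complement ATTGG in capitals:
MSMO1, chr4:165327419-165327718, plus strand: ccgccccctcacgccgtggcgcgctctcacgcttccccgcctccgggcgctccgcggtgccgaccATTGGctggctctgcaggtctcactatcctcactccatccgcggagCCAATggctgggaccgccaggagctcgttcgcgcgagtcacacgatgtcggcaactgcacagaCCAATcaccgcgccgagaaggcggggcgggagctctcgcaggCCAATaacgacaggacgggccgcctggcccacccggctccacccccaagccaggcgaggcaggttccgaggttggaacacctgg
HSD17B7, chr1:162790452-162790751, plus strand: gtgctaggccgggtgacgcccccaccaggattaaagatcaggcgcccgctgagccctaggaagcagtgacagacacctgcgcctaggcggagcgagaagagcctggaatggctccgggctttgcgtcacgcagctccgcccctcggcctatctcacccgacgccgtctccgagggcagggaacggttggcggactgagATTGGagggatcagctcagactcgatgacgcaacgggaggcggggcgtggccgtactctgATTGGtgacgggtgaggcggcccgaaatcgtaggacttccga
DHCR7, chr11:71448344-71448643, minus strand: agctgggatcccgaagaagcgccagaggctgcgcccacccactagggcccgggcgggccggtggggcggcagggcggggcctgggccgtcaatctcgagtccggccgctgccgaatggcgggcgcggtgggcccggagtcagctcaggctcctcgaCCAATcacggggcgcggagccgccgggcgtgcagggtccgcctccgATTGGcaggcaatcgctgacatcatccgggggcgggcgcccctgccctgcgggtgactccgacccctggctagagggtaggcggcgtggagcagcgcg
EBP, chrX:48521558-48521857, plus strand: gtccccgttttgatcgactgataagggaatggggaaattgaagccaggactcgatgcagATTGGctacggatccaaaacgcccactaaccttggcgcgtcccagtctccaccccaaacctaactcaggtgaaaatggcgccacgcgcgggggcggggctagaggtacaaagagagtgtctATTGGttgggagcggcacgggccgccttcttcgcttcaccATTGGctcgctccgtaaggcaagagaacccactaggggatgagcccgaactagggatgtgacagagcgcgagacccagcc
CYP51A1, chr7:92134428-92134727, minus strand: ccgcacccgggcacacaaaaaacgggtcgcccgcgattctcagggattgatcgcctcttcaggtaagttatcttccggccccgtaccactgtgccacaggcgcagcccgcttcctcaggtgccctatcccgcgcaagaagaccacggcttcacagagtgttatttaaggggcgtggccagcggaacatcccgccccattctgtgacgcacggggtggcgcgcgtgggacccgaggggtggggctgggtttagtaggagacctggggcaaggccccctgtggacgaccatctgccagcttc

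A CCAAT on either strand was present in a window of 8 of the 9 enzyme genes, against 39.7% of the 27305 genes with a window. MSMO1 held 4, at positions -185, -139, -76 and -34 from the start, NSDHL held 5, a pair of them overlapping in a palindrome, and EBP held 3. CYP51A1 was the gene without one in its window. That window ends at 92134727, inside the annotated span of the gene to 92134803, so sequence further upstream was not searched. The windows of DHCR7, ending at 71448643 and 71449293, likewise lie inside the annotated span of that gene to 71452868. The SP1 motif GGGCGG was present for 8 enzyme genes, all but NSDHL, against 48.3% of all genes. The E-box CACGTG was present for LSS and SC5D, against 8.77% of all genes. The sterol regulatory element TCACNCCAC was in no enzyme window, with 1.39% of all genes holding it. With 1 mismatch it was found for MSMO1, HSD17B7, SC5D and DHCR7, while 28.2% of all genes then held it. Each motif was searched on both strands, and the search with 1 mismatch was added after the exact search had found none. A match describes the letters in the window and was not tested for binding. The shares of all genes with a window include genes not tested here for expression. The share among the genes tested was not computed.

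**Figure D2:**
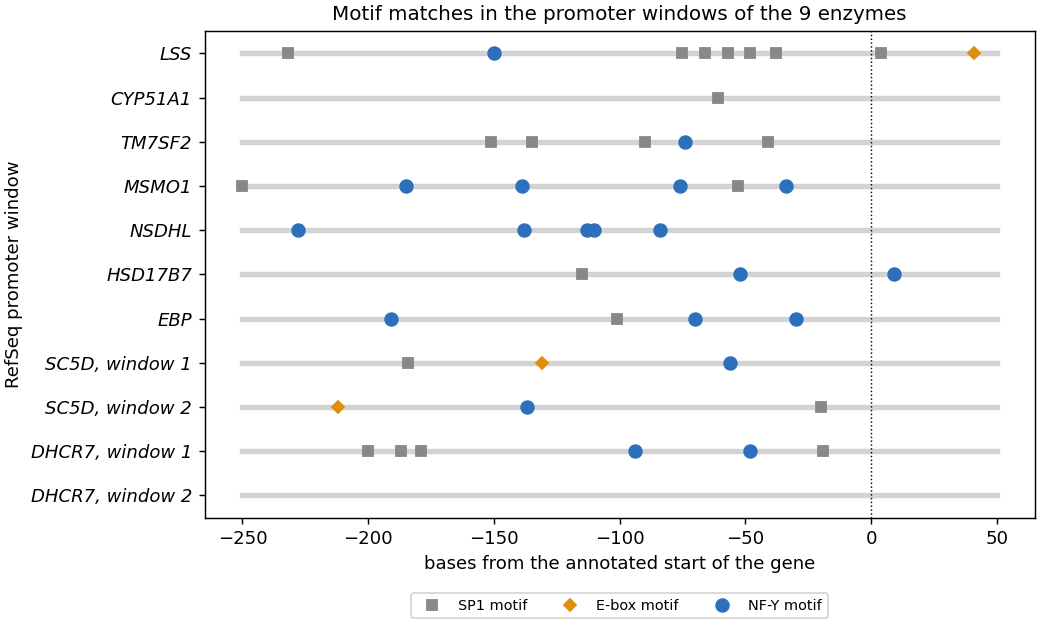
Matches to the NF-Y (blue circles), SP1 (grey squares) and E-box (orange diamonds) motifs in each RefSeq promoter window of the 9 enzymes, plotted by their distance in bases from the annotated start (dotted line). MSMO1 and NSDHL hold 4 and 5 NF-Y matches, and CYP51A1 and window 2 of DHCR7 hold no NF-Y match.

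LSS, lanosterol synthase (ENSG00000160285, chromosome 21, from 46188141 to 46228824 on the minus strand), closes epoxidised squalene into lanosterol and so forms the first sterol. Its normalised counts were 142.8, 126.8 and 124.8 CPM in ACM replicates 1, 2 and 3 and 207, 259 and 261 CPM in UCM. The groups did not overlap, as in 15.1% of all genes tested with ACM below UCM (13.9% with ACM above), and the spread in ACM was narrow (131.5 ± 9.84 CPM, SD, n = 3). The log2 FC was -0.88 (standard error, SE, 0.10, edgeR adjusted p = 0.0022).

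CYP51A1 (ENSG00000001630, chromosome 7, from 92084987 to 92134803 on the minus strand) is the cytochrome P450 that removes the first methyl group from lanosterol. It measured 53.4, 71.3 and 61.7 CPM in ACM and 104.8, 149.1 and 147.1 CPM in UCM. Every ACM value was below every UCM value, and the log2 FC was -1.10 (SE 0.16, edgeR adjusted p = 0.0122). A protein-coding model on the same strand, ENSG00000289027, shares 2827 exon bases with CYP51A1 and received between 0.00 and 59.9 counts per library, against 1124 to 2773 for CYP51A1, so the split of reads between them is uncertain. The pseudogenes CYP51A1P1, CYP51A1P2 and CYP51A1P3 received at most 2 counts in a library.

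TM7SF2 (ENSG00000149809, chromosome 11, from 65111845 to 65116384 on the plus strand) encodes a reductase for the double bond that CYP51A1 leaves behind. It was the weakest of the 9 results, with 110, 127 and 95 counts in ACM against 147, 211 and 207 in UCM. Scaled, these were 5.23, 7.15 and 5.16 CPM against 6.96, 11.3 and 12.1 CPM, and the groups overlapped because ACM replicate 2 exceeded UCM replicate 1. The log2 FC of -0.79 (SE 0.23, 95% confidence interval -1.30 to -0.28) had an adjusted p-value of 0.0749 from edgeR and an unadjusted p-value of 0.0062. In TPM, which divides by the effective length in each library, the groups did not overlap, with 6.36 to 8.33 TPM in ACM and 9.72 to 15.7 TPM in UCM. The share of all genes tested that separate in TPM was not computed. Tests that use TPM or these lengths did not pass either. The adjusted p-value was 0.0622 from limma on log2(TPM + 1), 0.0601 on log2(TPM + 0.1) and 0.0837 from edgeR with the lengths as offsets. With 1 library left out at a time, TM7SF2 passed only without UCM replicate 1, its lowest UCM value (log2 FC -0.99, edgeR adjusted p = 0.0081), and the adjusted p-value without any other library lay between 0.111 and 0.247. VPS51, on the same strand, shares 18 exon bases with TM7SF2 and received 1664 to 2152 counts per library. An effect of this overlap on the TM7SF2 counts was not tested. LBR, the lamin B receptor, catalyses the same reduction and was the more abundant gene in every library, at 21.8 to 26.9 TPM in ACM and 28.5 to 37.6 TPM in UCM. LBR fell, with a log2 FC of -0.38 (SE 0.07, edgeR adjusted p = 0.0164), and the difference between the 2 reductases was not tested.

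MSMO1, methylsterol monooxygenase (ENSG00000052802, chromosome 4, from 165327667 to 165343164 on the plus strand), oxidises the remaining pair of surplus methyl groups. It measured 17.1, 19.5 and 15.5 CPM in ACM and 62.7, 91.2 and 91.5 CPM in UCM, so the highest ACM value lay well below the lowest UCM value. Its log2 FC of -2.23 (SE 0.16, edgeR adjusted p = 0.0010) was the fourth lowest of the 14451 genes tested. The 95% confidence interval, -2.61 to -1.86, lay wholly below those of 7 of the 8 other enzymes and overlapped that of HSD17B7.

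NSDHL and HSD17B7 complete the removal of these methyl groups, NSDHL by an oxidative decarboxylation and HSD17B7 by reducing the ketone that remains. NSDHL (ENSG00000147383, chromosome X, from 152830967 to 152869729 on the plus strand) measured 40.9, 46.7 and 47.1 CPM in ACM and 76.6, 101.2 and 102.5 CPM in UCM. Its groups did not overlap, and the log2 FC was -1.06 (SE 0.12, edgeR adjusted p = 0.0023). HSD17B7 (ENSG00000132196, chromosome 1, from 162790702 to 162812823 on the plus strand) had the fewest reads of the 9 in each ACM library, with 80, 63 and 51 counts in ACM against 170, 211 and 170 in UCM, or, scaled, 3.80, 3.55 and 2.77 CPM against 8.05, 11.3 and 9.91 CPM, again without overlap. The log2 FC was -1.53 (SE 0.20, edgeR adjusted p = 0.0033). A near copy, HSD17B7P2 on chromosome 10, is annotated under a pair of identifiers. The model ENSG00000290439 received 11 to 16 counts in ACM and 22.8 to 34 in UCM, and ENSG00000099251 received none, so the split of reads between HSD17B7 and its copy is uncertain. HSD17B7P2 itself had a log2 FC of -1.15 (edgeR adjusted p = 0.112).

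**Figure D3:**
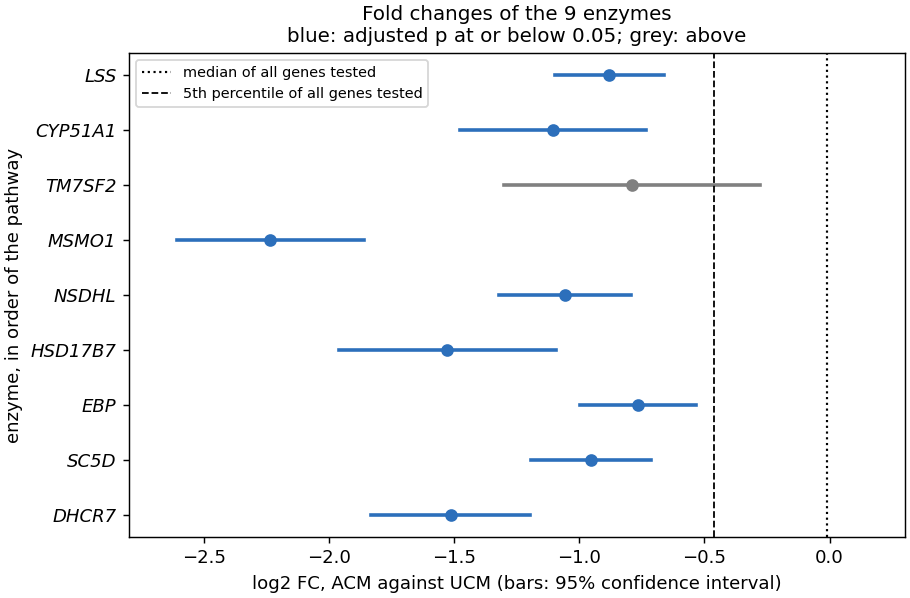
Log2 FC of the 9 enzymes in ACM against UCM with 95% confidence intervals, in the order of the pathway, beside the median (dotted) and the 5th percentile (dashed, -0.46) of all genes tested. MSMO1 lies lowest at -2.23, the other genes lie between -1.53 and -0.77, and TM7SF2 (grey) has the interval that reaches past the 5th percentile.

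EBP, SC5D and DHCR7 rearrange the double bonds of the ring. EBP (ENSG00000147155, chromosome X, from 48521799 to 48528716 on the plus strand) is the isomerase that shifts a double bond, and is also known for binding emopamil. It measured 37.2, 36.8 and 42.5 CPM in ACM and 56.6, 70.4 and 71.3 CPM in UCM. The groups did not overlap, although the log2 FC of -0.77 (SE 0.10, edgeR adjusted p = 0.0040) was the smallest decrease of the 9.

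SC5D, a desaturase (ENSG00000109929, chromosome 11, from 121292681 to 121313410 on the plus strand), measured 23.5, 27.9 and 21.7 CPM in ACM and 43.1, 49.3 and 48.9 CPM in UCM. All ACM values lay below UCM, with a log2 FC of -0.95 (SE 0.11, edgeR adjusted p = 0.0022).

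DHCR7, the reductase whose loss causes Smith-Lemli-Opitz syndrome (ENSG00000172893, chromosome 11, from 71428193 to 71452868 on the minus strand), removes the double bond that SC5D has made conjugated. It measured 93.2, 98.5 and 97.1 CPM in ACM and 211.9, 309.7 and 303 CPM in UCM. The ACM values lay close together (96.3 ± 2.72 CPM, SD, n = 3), and the log2 FC was -1.51 (SE 0.14, edgeR adjusted p = 0.0022).

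Levels of different enzymes were compared in TPM. In UCM the order was DHCR7 (198.7 ± 42.3 TPM), EBP (119.9 ± 13.6), LSS (115.3 ± 5.91), NSDHL (92.5 ± 13.2), CYP51A1 (75.1 ± 12.0), MSMO1 (64.1 ± 12.2), SC5D (28.6 ± 3.53), TM7SF2 (13.4 ± 3.19) and HSD17B7 (11.6 ± 1.25 TPM, SD, n = 3 each). Of the neighbours in this order, EBP and LSS, NSDHL and CYP51A1, CYP51A1 and MSMO1, and TM7SF2 and HSD17B7 overlapped between libraries. In ACM the top of the order was level, with EBP (68.9 ± 6.23 TPM), DHCR7 (64.4 ± 4.31) and LSS (62.3 ± 5.57 TPM, SD, n = 3 each) overlapping. MSMO1, at 13.2 ± 1.13 TPM, overlapped SC5D, at 15.2 ± 1.04 TPM (SD, n = 3 per group). HSD17B7 was the lowest of the 9, at 3.82 ± 0.679 TPM (SD, n = 3).

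The summed TPM of the 9 genes was 314, 307 and 316 in the ACM libraries (replicates 1, 2, 3) against 598, 766 and 793 in UCM. The ACM libraries differed little from one another, and the lowest UCM library exceeded each of them. Within this sum, DHCR7 took 27.4 ± 2.01% in UCM and 20.6 ± 1.24% in ACM, and MSMO1 took 8.87 ± 0.42% and 4.25 ± 0.43% (SD, n = 3 per group). The share of HSD17B7 was also lower in every ACM library, whereas the shares of LSS, EBP, SC5D and TM7SF2 were higher in every one. LSS stood at 16.2 ± 1.81% in UCM and 19.9 ± 1.68% in ACM, and EBP stood at 16.7 ± 0.62% and 22.0 ± 1.74% (SD, n = 3 per group). For each of these 7 genes the exact two-sided permutation test gave p = 0.1, the smallest that 3 libraries against 3 allow, and an adjusted p of 0.129 over the 9 shares. The shares of CYP51A1 and NSDHL overlapped between the groups (exact permutation test, p = 0.7 and 0.3). The differences in share were therefore not past 0.05, which this design could not reach. Within a library the shares make up the whole, so they are not independent, and a higher share is not a higher level. LSS, EBP, SC5D and TM7SF2 all had a lower mean TPM in ACM.

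**Figure D4:**
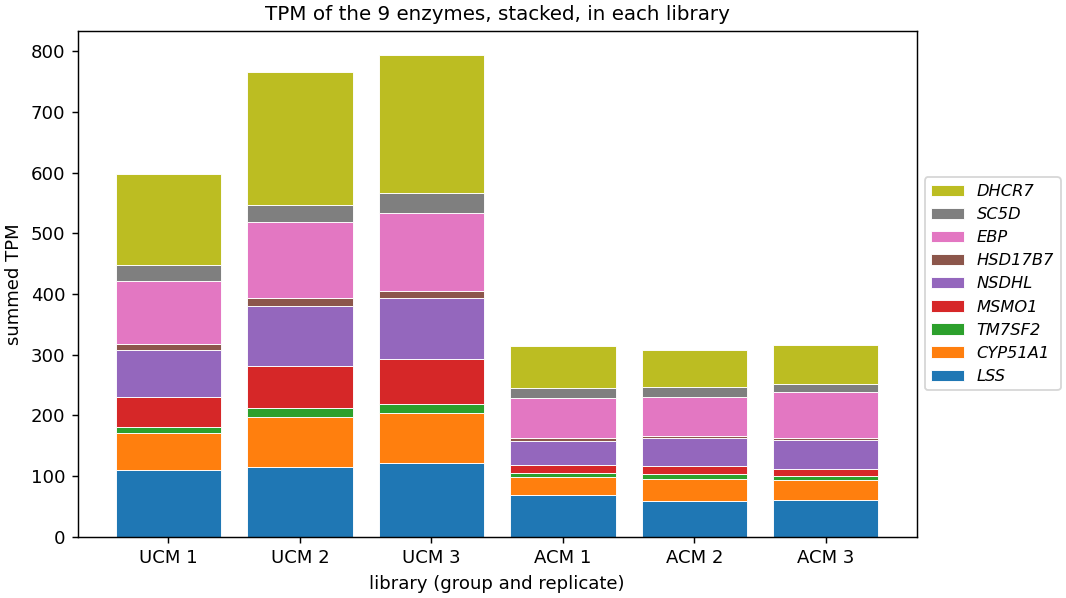
TPM of the 9 enzymes stacked for each library, from 0, with a colour for each gene. The sums are 598, 766 and 793 in UCM and between 307 and 316 in ACM, and MSMO1 makes up 8.87% of the sum in UCM and 4.25% in ACM on average.

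TPM depends on the effective length that RSEM gave a gene in each library, a mean over its transcripts weighted by abundance. No enzyme had effective lengths that separated the groups, as 3.7% (shorter in ACM) and 5.49% (longer in ACM) of all genes tested had. The mean lengths of DHCR7 were 2123 ± 187 bases in ACM and 1986 ± 65.5 bases in UCM, and those of MSMO1 were 1850 ± 31.6 and 1825 ± 26.2 bases (SD, n = 3 per group). The exact permutation p of the 9 lengths lay between 0.2 and 1, with the smallest adjusted p at 0.6. With these lengths as offsets in edgeR, the log2 FC of DHCR7 was -1.60 and that of MSMO1 was -2.25.

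Most genes for the steps before lanosterol also fell. Of 9 genes analysed for the isoprenoid and squalene steps, 8 fell and none rose at the adjusted p-value, with a median log2 FC of -1.48. Of all genes tested 2.21% fell and 3.35% rose at that threshold. HMGCS1, which makes the precursor of mevalonate, fell from 191.7 ± 46.1 CPM in UCM to 44.5 ± 4.92 CPM in ACM (SD, n = 3 per group), a log2 FC of -2.11 (SE 0.19, edgeR adjusted p = 0.0038). MVK, mevalonate kinase, and IDI1, an isomerase of isoprenoid units, had a log2 FC of -1.71 and -1.55. SQLE, which makes the epoxide that LSS closes, had a log2 FC of -1.01 (SE 0.10, edgeR adjusted p = 0.0019), next to -0.88 for LSS. PMVK, the kinase that follows MVK, had 31.6 ± 1.34 CPM in ACM against 28.5 ± 3.02 CPM in UCM (SD, n = 3 per group) and a log2 FC of 0.15 (edgeR adjusted p = 0.408).

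Proteins that work beside the 9 enzymes were more mixed. At the adjusted p-value 2.21% of all genes tested fell and 3.35% rose. Of 4 homologs and associated proteins, ERG28 and TMEM97 fell, with a median log2 FC of -0.42 over the 4. ERG28, whose yeast counterpart tethers the enzymes of methyl group removal, had 22.2 ± 0.21 CPM in ACM against 44.8 ± 10.0 CPM in UCM (SD, n = 3 per group), a log2 FC of -1.01 (edgeR adjusted p = 0.0098). TMEM97, a relative of EBP, had a log2 FC of -0.75 (edgeR adjusted p = 0.0158). The EBP homolog EBPL and the MSMO1 homolog FAXDC2 had a log2 FC of -0.08 and -0.04, with adjusted p-values of 0.628 or more from edgeR. FAXDC2 had 7 to 18 counts per library and a standard error of 0.46, the least precise value of the 4. Of 7 genes for electron donors, on which CYP51A1, MSMO1 and SC5D depend, 6 were tested and 2 fell, with a median log2 FC of -0.13. CYB5B, an outer mitochondrial cytochrome b5, had a log2 FC of -0.48 (edgeR adjusted p = 0.0075), and the reductase CYB5R4 had -0.33 (edgeR adjusted p = 0.0339). CYB5A, CYB5R1 and CYB5R3 had a log2 FC of -0.10, 0.03 and 0.14 and did not pass (edgeR adjusted p = 0.663, 0.894 and 0.374). POR, the reductase that supplies CYP51A1, had 87.2 ± 4.92 CPM in ACM against 97.8 ± 6.39 CPM in UCM (SD, n = 3 per group) and did not pass (log2 FC -0.17, edgeR adjusted p = 0.224).

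Among 7 SREBP regulators 2 fell and none rose at the adjusted p-value, with a median log2 FC of 0.08. The shares over all genes tested were 2.21% lower and 3.35% higher. INSIG1, which retains SCAP and is itself a target of the pathway, fell from 124.6 ± 25.0 CPM in UCM to 34.2 ± 5.21 CPM in ACM (SD, n = 3 per group), a log2 FC of -1.87 (edgeR adjusted p = 0.0030). SREBF2 had a log2 FC of -0.61 (edgeR adjusted p = 0.0038). INSIG2 and SREBF1 had positive values of 0.56 and 0.24 that did not pass (edgeR adjusted p = 0.116 and 0.0583). SCAP, MBTPS1 and MBTPS2, which escort and cleave the factor, lay between -0.07 and 0.17 without passing.

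Of 9 genes for cholesterol transport, storage and efflux, 8 were tested, 1 fell and 1 rose, with a median log2 FC of 0.04. Over all genes tested 2.21% fell and 3.35% rose. STARD4, a sterol carrier, had a log2 FC of -1.26 (SE 0.16, edgeR adjusted p = 0.0062). ABCA1, which exports cholesterol to apolipoproteins, had 563, 752 and 475 counts in ACM against 90, 37 and 37 in UCM, the opposite direction to the 9 enzymes. Its log2 FC was 3.47 (SE 0.34, edgeR adjusted p = 0.0040). ABCG1 had no count in any library.

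**Figure D5:**
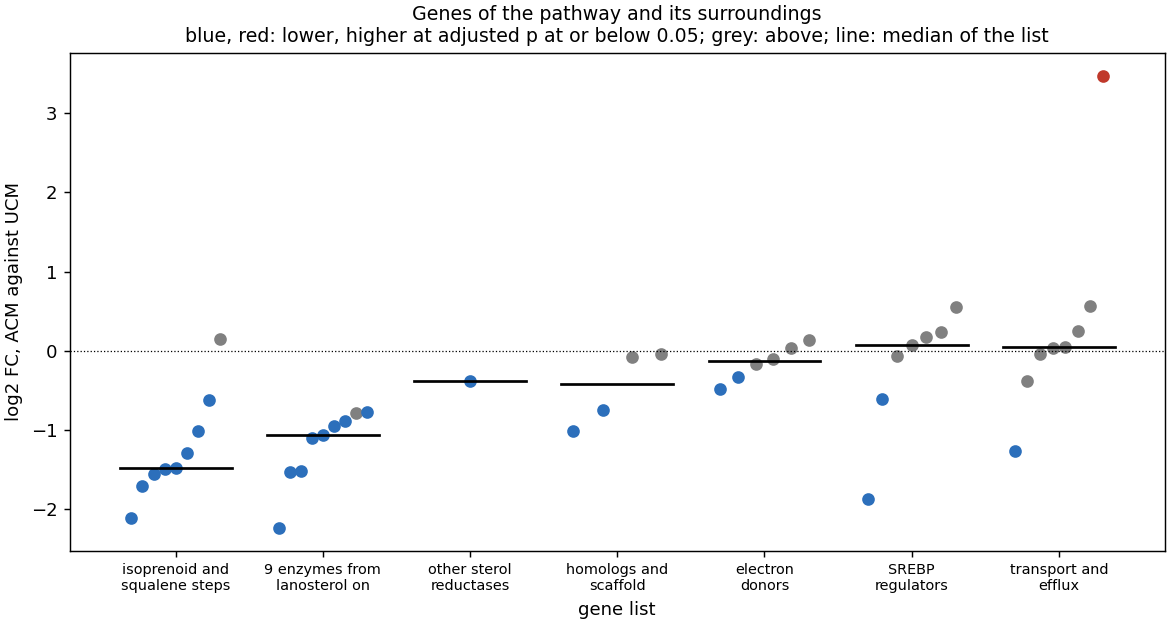
Log2 FC of each tested gene (points) in the 9 enzymes and 6 lists of related genes, with the median of each list as a black line and zero dotted. Blue and red points fell and rose past the edgeR threshold of 0.05. The medians of the isoprenoid steps (-1.48) and of the 9 enzymes (-1.06) lie lowest, and ABCA1 stands alone at 3.47.

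Among the 5 genes whose pattern over the 6 libraries was most like the mean of the 9 enzymes were IDH1, SCD, ACSS2 and GRM2. Likeness was the root mean square difference of log2 CPM after centring each gene, and genes averaging under 1 CPM were left out. IDH1, the cytosolic isocitrate dehydrogenase, differed by 0.05 and had 32.8 CPM in ACM and 72.4 CPM in UCM on average. SCD, a fatty acid desaturase, and ACSS2, an acetyl-CoA synthetase, each differed by 0.07. The glutamate receptor gene GRM2 differed by 0.09. The 9 enzymes themselves differed from their mean by 0.10 (CYP51A1 and NSDHL) to 0.52 (MSMO1). These genes were picked by this likeness, so their log2 FC, such as -1.21 for SCD and -1.14 for IDH1, is a description.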

How the data were processed

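Polyadenylated RNA of the 6 samples was sequenced by the study as paired 150-base reads. Per the labels, the authors used Trim Galore, STAR and RSEM with GRCh38 (versions not given in the sources used here), and the library strandedness is not given there either. They deposited, per gene and library, expected counts, TPM (transcripts scaled by length and library) and effective lengths. A further deposited table holds their own fold changes and p-values and was not used. GENCODE 44 gave symbols for 61547 of 63140 identifiers. Expected counts were rounded, filtered with filterByExpr, scaled by TMM and tested with edgeR 4.0.16 (robust quasi-likelihood, ACM against UCM), with Benjamini-Hochberg adjustment over 14451 genes. DESeq2 1.42.0 and limma 3.58.1 served as alternatives. Shares and lengths were compared by exact permutation over 20 assignments. The edgeR fit was tested on simulated counts with a fixed dispersion, and its length offsets only with a constant length. On the same counts limma was run on log2 CPM, not on TPM. The other steps were not tested this way. Named genes are the 9 enzymes, the related lists, marker genes and the 5 most similar genes. The enzymes and lists were chosen with earlier results of these data known. Promoter sequences are from RefSeq. Some genes of the lists, and 1 of the most similar genes, are not reported here. No pair of libraries of a group agreed within counting noise.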

Additional observations from a re-analysis of the deposited data

How the results depend on the processing

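In 14 alternatives, LSS, CYP51A1, MSMO1, NSDHL, HSD17B7, EBP, SC5D and DHCR7 kept their direction and an adjusted p-value at or below 0.05, the highest being 0.0456 for CYP51A1 without UCM replicate 2. The median log2 FC of the 9 lay between -1.17 and -0.97 when single libraries were left out, and 8 passed each time except without UCM replicate 1, which held the lowest UCM value of all 9, where 9 passed beside 1310 of 14684 genes. TM7SF2 passed in 4 of the 14, with a log2 FC of -0.78 in DESeq2 (adjusted p = 0.0250), -0.78 with at least 1 count in total (0.00071), -0.77 with the replicate block (0.0154) and -0.99 without UCM replicate 1. Its values without single libraries ran from -0.99 to -0.63. With at least 1 count in total, edgeR gave all 9 far smaller adjusted p-values at nearly the same log2 FC. That of MSMO1 was 1.7e-101, against 0.0010 in the main edgeR fit. The pass of TM7SF2 in that setting is therefore not comparable with its other passes.

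The number of genes called, 804 (320 lower, 484 higher), depended on the setting, and the cause was not tested. DESeq2 called 1211, of which 764 were higher. With at least 1 count in total 1724 were called (679 lower, 1045 higher), and with effective lengths as offsets 406 (134 lower, 272 higher). limma called 362 (132 lower, 230 higher) on log2(TPM + 1) and 372 (138 lower, 234 higher) on log2(TPM + 0.1). Leaving out single libraries gave 195 to 1310 genes (62 to 572 lower, 125 to 738 higher), with 1310 without UCM replicate 1, 195 without UCM replicate 2, 218 without UCM replicate 3, 284 without ACM replicate 2 and 510 without ACM replicate 3.

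The replicate block called 1612 genes (703 lower, 909 higher). Nothing states whether equal replicate numbers mark paired samples. Deviations of equal numbers correlated by 0.318, 0.035 and 0.177 across genes. ACM replicates 1 and 2 correlated best with the UCM replicate of their own number, and ACM replicate 3 with UCM replicate 2 (0.196). These values do not settle whether the samples were paired.

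Of the values that passed no test, 3 changed sign when a library was left out. The share of CYP51A1 in the summed TPM, ACM minus UCM, ran from -0.436 to 0.774 percentage points, with -0.436 without ACM replicate 2. The effective length of LSS ran from -134.5 to 70.8 bases, with 12.0, 70.8 and 32.9 without ACM replicate 1, UCM replicate 2 and UCM replicate 3. That of HSD17B7 ran from -4.16 to 91.9 bases, with -4.16 without ACM replicate 2.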

Other observations

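Enzymes that make oxysterols were near the limit of detection. CH25H had 2 counts in one UCM library and none elsewhere. CYP27A1 had 1 to 6 counts, CYP46A1 1 to 6 and CYP7B1 0 to 12 counts per library, and none of these genes passed the filter on low counts. An unnamed antisense transcript, ENSG00000254682, lies within the span of DHCR7 and shares no exon base with it. It had 85, 72 and 56 counts in ACM and 100, 137 and 112 counts in UCM. Every ACM count lay below every UCM count, without scaling for depth. In CPM, 15.1% of all genes tested had the ACM libraries wholly below UCM. The transcript was chosen after its values were seen. Reads from DHCR7 introns and from this transcript cannot be told apart without strand information.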
